A study of Mus musculus with 16 samples.

Results

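The genes of the AMP-activated protein kinase (AMPK) were followed in mouse quadriceps: the 7 subunit genes *Prkaa1*, *Prkaa2*, *Prkab1*, *Prkab2*, *Prkag1*, *Prkag2* and *Prkag3*, the upstream kinases *Stk11* and *Camkk2*, and the substrate gene *Acacb*. They are 10 of the 41388 genes in the count table and were taken from it by symbol. The list was chosen by someone who knew earlier results on these same counts, with *Prkag3* set against the other subunits for its level across the groups. The members' levels, fold changes and calls are therefore given as a description, without p-values. All 10 members passed the filter on low counts in every comparison.

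AMPK is a heterotrimer that senses the energy state of the cell. A catalytic α subunit carries the kinase domain, a β subunit binds glycogen and holds the complex together, and a γ subunit binds AMP, ADP and ATP. LKB1 (*Stk11*) and CaMKK2 phosphorylate the α subunit and switch the kinase on, and active AMPK phosphorylates, among others, ACC2 (*Acacb*), which makes the malonyl-CoA that holds back fatty acid entry into mitochondria. In skeletal muscle α2 and β2 are the main catalytic and β forms, and γ3 is a muscle form found mostly in fast glycolytic fibers.

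The mice were C57BL/6, either wild type (WT) or lacking *Mtm1* throughout the body (*Mtm1* KO, exon 4 removed by homologous recombination), a model of X-linked myotubular myopathy. From day 21 of life they ate standard chow, or chow with tamoxifen, a modulator of estrogen receptors, at 40 mg/kg (WT + TAM and *Mtm1* KO + TAM), and quadriceps was taken at day 36. Whole muscle was sequenced, with 1 library per mouse and 4 libraries per group. The study left 2 libraries out without a stated reason, those labelled WT replicate 1 and *Mtm1* KO replicate 12. The other 14, numbered 2 to 4 in untreated WT, 5 to 8 in treated WT, 9 to 11 in untreated *Mtm1* KO and 13 to 16 in treated *Mtm1* KO, gave the values here unless stated.

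The libraries held between 25702605 and 29847222 counts on genes. *Mtm1* averaged 0.91 ± 0.02 RPKM (reads scaled to gene length and library size, SD, n = 3) in WT and 0.19 ± 0.02 (SD, n = 3) in *Mtm1* KO. In *Mtm1*, the library labelled WT replicate 1, outside the 14, went against its label. It held 74 counts, within the range of 63 to 76 of untreated *Mtm1* KO and far from the 341 to 369 of untreated WT. Its summed fast fiber markers (124400 RPKM) were above those of every *Mtm1* KO library, and its leukocyte markers (64.3) below, both on the side of WT. Its slow fiber markers (1376) were above those of all 14. The muscle, fast fiber, 2X and 2A fiber and slow fiber markers were detected in all 14 libraries. Log2 fold changes below are from edgeR on counts with TMM scaling, whereas the RPKM values use total counts for scaling. Values named CPM are counts scaled to library size with TMM. The choice matters between genotypes: over all genes in *Mtm1* KO against WT, the median log2 fold change was 0.33 with total counts and 0.02 with TMM, so the fold changes are read relative to the TMM median. A gene was called at an adjusted p of at most 0.01 over all genes (quasi-likelihood test, Benjamini-Hochberg).

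The promoters of *Prkag3* and *Prkab2* are shown because these members had the largest fitted changes of the 10, *Prkag3* with tamoxifen in WT and *Prkab2* with the loss of *Mtm1*. Both are RefSeq sequences of GRCm38.p6, from 250 bases before to 50 bases after the start that RefSeq gives. GENCODE places these starts elsewhere, and the *Prkag3* window lies inside the gene as GENCODE annotates it. *Prkag3* is read from chr1:74748906-74749205 on the minus strand and *Prkab2* from chr3:97657962-97658261 on the plus strand. Capitals mark an E-box.
Prkag3: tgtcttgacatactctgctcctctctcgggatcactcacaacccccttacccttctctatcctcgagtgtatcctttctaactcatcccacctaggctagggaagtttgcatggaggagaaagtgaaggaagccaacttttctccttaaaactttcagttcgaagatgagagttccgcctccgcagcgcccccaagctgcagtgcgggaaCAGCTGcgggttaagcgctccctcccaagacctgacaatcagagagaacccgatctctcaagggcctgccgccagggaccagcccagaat
Prkab2: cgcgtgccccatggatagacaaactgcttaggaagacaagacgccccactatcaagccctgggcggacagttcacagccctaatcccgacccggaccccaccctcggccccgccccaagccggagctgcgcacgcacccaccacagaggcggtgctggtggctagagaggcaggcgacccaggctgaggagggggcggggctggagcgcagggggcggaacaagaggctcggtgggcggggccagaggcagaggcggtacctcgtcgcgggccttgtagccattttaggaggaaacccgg

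Both strands were searched for 4 motifs. The E-box CANNTG, the site of muscle regulatory factors among others, occurred 1 time in the *Prkag3* window and 0 times in the *Prkab2* window, and 72.3% of 32851 mouse promoters of this length held at least 1. The TATA box TATAAA, a MEF2 core TAAAAATA and an estrogen receptor half-site AGGTCA occurred in neither window. They were present in 13.6%, 2.72% and 16.3% of all promoters. These letters are a description of the windows only.

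Levels differed along both axes of the design. In *Mtm1* KO, *Prkab2* (β2) was at 0.357 of its WT level in the fit and *Prkaa1* (α1) was higher, both called, while the log2 fold changes of *Prkaa2* (α2) and *Prkag3* (γ3), -0.63 and -0.92, were not called. With tamoxifen, *Prkag3* was at 0.316 of its WT level in WT + TAM, while the other 9 members had fitted log2 changes between -0.50 and 0.53. In mean RPKM, *Prkag1* (γ1) was the most abundant γ transcript of WT + TAM muscle, and *Prkag3* that of WT muscle. In CPM, which is not scaled to gene length, *Prkag3* averaged 82.7 and *Prkag1* 69.6 in WT + TAM.

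**Figure D1:**
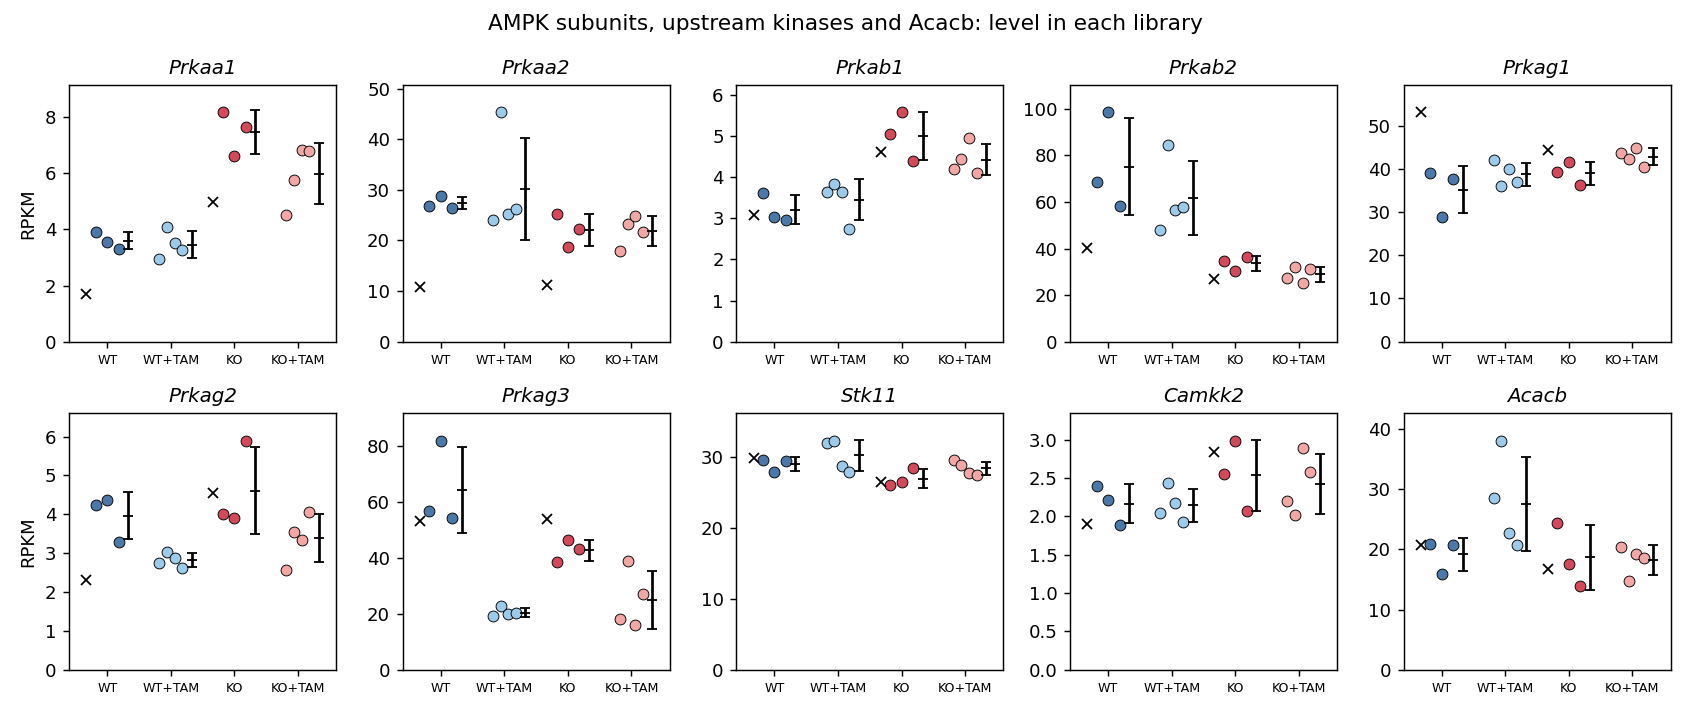
RPKM (vertical axes, from 0) of the 10 members in each library, by group on the horizontal axes. Circles are the 14 libraries, crosses the 2 libraries outside them, and the bars give the mean and SD of the circles. *Prkag3* has its lowest means in the tamoxifen groups and *Prkab2* in the *Mtm1* KO groups.

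Among the catalytic subunits, *Prkaa2* (α2, chromosome 4) was the more abundant. It measured 26.9, 28.7 and 26.5 RPKM in WT, 24.0, 45.3, 25.3 and 26.3 in WT + TAM, 25.2, 18.7 and 22.3 in *Mtm1* KO and 17.9, 23.3, 24.8 and 21.6 in *Mtm1* KO + TAM. Every *Mtm1* KO library of the 14, on either diet, lay below every untreated WT library. In RPKM, *Mtm1* KO replicate 9 and *Mtm1* KO + TAM replicate 15 exceeded WT + TAM replicate 5. In CPM no *Mtm1* KO library of the 14 reached the WT + TAM range. The wide WT + TAM group came from 1 high library, replicate 6. The fitted log2 fold change of *Prkaa2* was -0.63 ± 0.15 (SE) in *Mtm1* KO against WT and -0.75 ± 0.18 in *Mtm1* KO + TAM against WT + TAM, and neither was called. *Mtm1* KO + TAM against untreated WT gave -0.61 ± 0.12, which was called, but in only 7 of 19 alternatives and not after leaving out any 1 of its 7 libraries (-0.66 to -0.52).

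*Prkaa1* (α1, the catalytic form most other tissues use) went the other way. It measured 3.91, 3.56 and 3.32 RPKM in WT, 2.95, 4.08, 3.51 and 3.28 in WT + TAM, 8.18, 6.63 and 7.67 in *Mtm1* KO and 4.52, 5.77, 6.85 and 6.81 in *Mtm1* KO + TAM. All 7 *Mtm1* KO libraries with or without tamoxifen were above all 7 WT libraries on this scale. The log2 fold change was 0.75 ± 0.14 (SE) in *Mtm1* KO against WT, just inside the threshold, and the call was lost on leaving out any 1 of the 6 libraries (0.68 to 0.85). Between the treated groups it was 0.51 ± 0.14 and not called. The 2 libraries outside the 14 were low in both α genes, with 1.71 RPKM of *Prkaa1* and 10.7 of *Prkaa2* in the library labelled WT replicate 1, and 4.98 and 11.3 in *Mtm1* KO replicate 12.

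*Prkab2* (β2, GRCm38 chr3:97658193-97673812, plus strand) carried the largest difference between genotypes among the members. It measured 68.5, 98.5 and 58.4 RPKM in WT, 47.8, 84.3, 56.5 and 57.9 in WT + TAM, 34.6, 30.2 and 36.2 in *Mtm1* KO and 27.2, 31.9, 25.1 and 31.4 in *Mtm1* KO + TAM. The highest library without *Mtm1* was below the lowest WT library of either diet. The log2 fold change was -1.48 ± 0.22 (SE) in *Mtm1* KO against WT, -1.36 ± 0.17 in *Mtm1* KO + TAM against WT + TAM and -1.67 ± 0.20 in *Mtm1* KO + TAM against WT, and all of these were called. The last of these used the WT libraries of the first and the *Mtm1* KO + TAM libraries of the second. The first was not called without *Mtm1* KO replicate 9 (-1.48), 10 (-1.39) or 11 (-1.56), nor with all 16 libraries (-1.39), while the others kept the call in 19 of 19 alternatives each. Tamoxifen moved *Prkab2* by -0.30 ± 0.23 in WT and by -0.17 ± 0.15 in *Mtm1* KO, neither called.

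*Prkab1* (β1) was the minor β transcript. It measured 3.62, 3.04 and 2.97 RPKM in WT and 5.04, 5.58 and 4.40 in *Mtm1* KO, without overlap, and its log2 fold change of 0.33 ± 0.15 (SE) was not called. With tamoxifen the ranges were 2.73 to 3.83 in WT + TAM and 4.11 to 4.95 in *Mtm1* KO + TAM, and the log2 fold change between them was 0.07 ± 0.13. These treated groups were apart in RPKM and overlapped in CPM.

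*Prkag3* (γ3, GRCm38 chr1:74738922-74749221, minus strand) was the member that differed most with tamoxifen. In WT it measured 56.8, 81.9 and 54.2 RPKM, or 5924, 8317 and 5499 counts, and in WT + TAM 19.1, 22.6, 19.99 and 20.2 RPKM, or 1825, 2237, 1892 and 1937 counts. The 4 WT + TAM libraries lay close together, and the lowest WT library was more than 2-fold above the highest of them. The log2 fold change was -1.66 ± 0.17 (SE). This comparison called 19 genes of 14544, with *Prkag3* among them. Since *Prkag3* was chosen for its level across these groups, nothing is read from that.

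Leave-one-out fits kept the size of this difference but not always the call. The log2 fold change of *Prkag3* in WT + TAM against WT ran from -1.78 to -1.40 over all alternatives, and the call was lost without WT replicate 4 (-1.78) and without WT + TAM replicate 5 (-1.64), 7 (-1.65) or 8 (-1.65). It was called in the other 15 of 19 alternatives. The library labelled WT replicate 1 had 53.4 RPKM of *Prkag3*.

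In *Mtm1* KO muscle *Prkag3* measured 38.6, 46.3 and 43.1 RPKM, below all 3 WT libraries, and *Mtm1* KO replicate 12, outside the 14, measured 54.1. The log2 fold change against WT was -0.92 ± 0.20 (SE). It was not called in the main fit and was called in 4 of 18 alternatives. *Mtm1* KO + TAM libraries measured 18.3, 38.8, 15.9 and 27.0 RPKM, the widest spread of *Prkag3* relative to its mean in any group.

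The effect of tamoxifen on *Prkag3* in *Mtm1* KO was -0.73 ± 0.26 (SE) on the log2 scale, with the highest treated library, replicate 14, just above the lowest untreated one, and it was not called. The difference between the effects in *Mtm1* KO and in WT was 0.95 ± 0.35 and was not called either, so the smaller effect in *Mtm1* KO is not established as different. With tamoxifen in both genotypes *Prkag3* did not separate the groups, with a log2 fold change of 0.01 ± 0.23. *Mtm1* KO + TAM against untreated WT gave -1.66 ± 0.29 and was called, though not without WT replicate 3 (-1.38) or *Mtm1* KO + TAM replicate 13 (-1.54). It shares its libraries with the other comparisons.

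The other γ genes behaved differently from *Prkag3*. *Prkag1* (γ1, the widespread form) measured 39.1, 28.9 and 37.6 RPKM in WT, 36.1 to 42.0 in WT + TAM, 36.2 to 41.5 in *Mtm1* KO and 40.5 to 44.9 in *Mtm1* KO + TAM. Its fitted log2 changes lay between -0.16 and 0.18 in the 5 pairwise comparisons, and none was called. *Prkag1* shares 43.7% of its exonic bases with B130046B21Rik on the opposite strand, and the strand setting of the counting is not given in the sources used here, so reads from these 2 genes may not be told apart. The deposited RPKM of *Prkag1* uses a length of 1638 bases, where the GENCODE annotation of GRCm38 gives 2175 exonic bases, and its level and share rest on the former. *Prkag2* (γ2, known from cardiac muscle) was low, at 3.28 to 4.38 RPKM in WT and 2.63 to 3.03 in WT + TAM. These groups did not overlap, and its log2 fold change of -0.50 ± 0.13 (SE) was not called.

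The make-up of the γ transcripts differed by group. Per RPKM, *Prkag3* made up 61.6 ± 8.2% (SD, n = 3) of the summed γ transcripts in WT and 33.1 ± 2.9% (n = 4) in WT + TAM. In *Mtm1* KO its share was 49.4 ± 2.0% (n = 3), and in *Mtm1* KO + TAM it was 34.2 ± 9.5% (n = 4). The summed γ level was 103.5 RPKM in WT and 62.1 in WT + TAM, and the share of *Prkag1* was 34.6% and 62.4% while its own level differed by less than its SD in WT.

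The α and β classes differed mainly by genotype. *Prkaa2* made up 88.4 ± 0.9% (SD, n = 3) of α transcripts in WT and 89.4 ± 1.7% (n = 4) in WT + TAM, against 74.6 ± 0.8% (n = 3) in *Mtm1* KO and 78.6 ± 1.9% (n = 4) in *Mtm1* KO + TAM. *Prkab2* made up 95.7 ± 1.1% of β transcripts in WT and 94.5 ± 1.3% in WT + TAM, against 86.9 ± 2.4% and 86.6 ± 2.2% without *Mtm1*. In both classes the muscle form remained the major one in every library. The summed β level was 78.3 RPKM in WT and 38.7 in *Mtm1* KO, and the summed α level was 31.0 and 29.6. These sums depend on the scaling by total counts. In CPM, with TMM, the major α transcript *Prkaa2* averaged 239.3 in WT and 152.5 in *Mtm1* KO, and the minor *Prkaa1* 18.3 and 30.3. A share, unlike these sums, compares genes within a library and does not depend on the scaling between libraries.

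**Figure D2:**
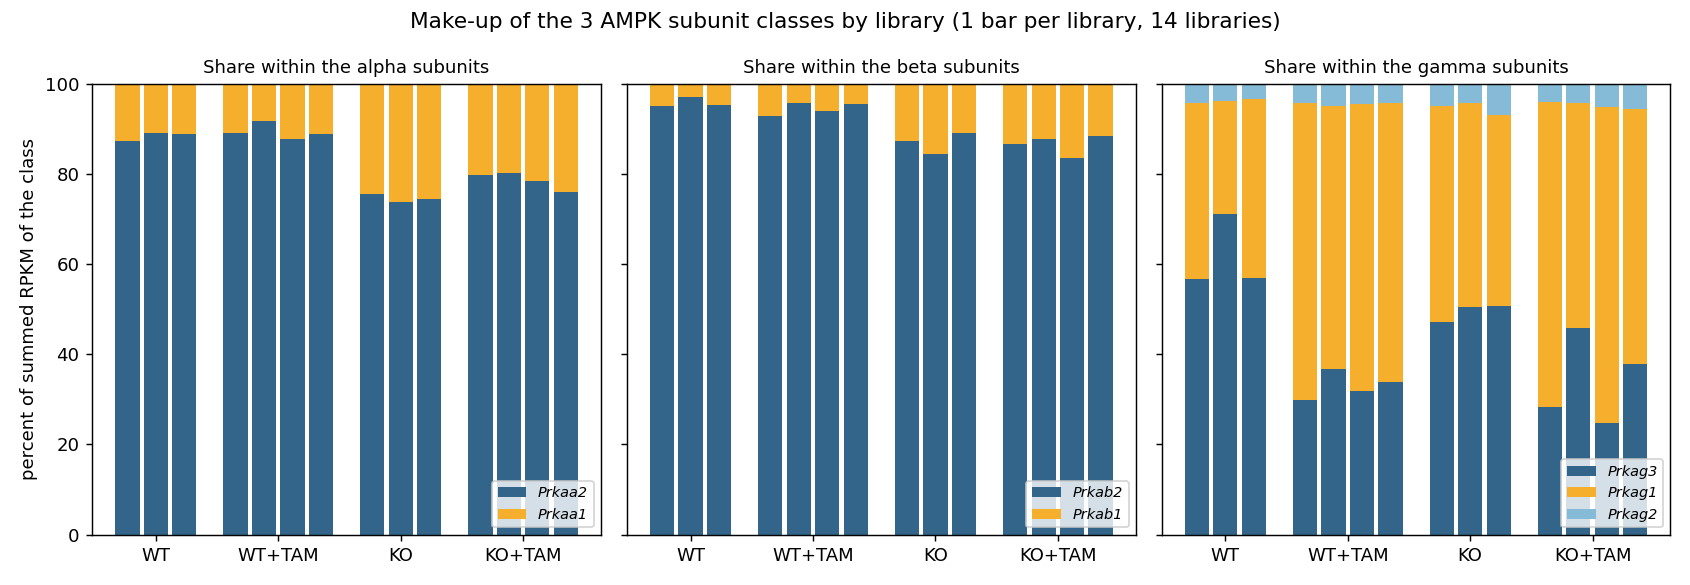
Share of each transcript in the summed RPKM of its subunit class (vertical axis, percent), with 1 stacked bar for each of the 14 libraries. The *Prkag3* share averages 61.6% in WT and 33.1% in WT + TAM, and the *Prkaa1* and *Prkab1* shares are larger in both *Mtm1* KO groups.

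Neither kinase upstream of AMPK was called in any comparison of the main fit. *Stk11* (LKB1) measured 29.5, 27.8 and 29.5 RPKM in WT, 27.9 to 32.2 in WT + TAM, 25.96 to 28.4 in *Mtm1* KO and 27.4 to 29.5 in *Mtm1* KO + TAM. These groups overlapped in RPKM, while in CPM the genotypes were apart on either diet. Relative to the TMM median its log2 fold change was -0.42 ± 0.12 (SE) in *Mtm1* KO against WT and -0.37 ± 0.11 in *Mtm1* KO + TAM against WT + TAM. The former was called in 2 of 18 alternatives and the latter in 1 of 19. With total counts alone these log2 fold changes were -0.11 and -0.09. *Camkk2*, the calcium-dependent kinase, was the lowest member in every group, with means of 2.14 to 2.53 RPKM. Its fitted log2 changes lay between -0.12 and -0.02 in the pairwise comparisons, with none called.

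*Acacb*, the gene of the AMPK substrate ACC2, measured 20.9, 16 and 20.7 RPKM in WT and 28.6, 38.1, 22.7 and 20.8 in WT + TAM. In *Mtm1* KO it measured 24.5, 17.7 and 13.9, and in *Mtm1* KO + TAM 20.4, 14.8, 19.3 and 18.5. WT + TAM had the highest mean, through replicates 5 and 6 in particular. In RPKM, replicate 8 lay within the untreated WT range, and replicate 7 above it but below the highest untreated *Mtm1* KO library. In CPM, with TMM, the WT + TAM libraries ran from 219.6 to 395.7. Untreated WT ran from 179.8 to 214.1 and untreated *Mtm1* KO from 120.2 to 201.4, so neither overlapped with WT + TAM on that scale. The log2 fold change of *Acacb* was 0.53 ± 0.20 (SE) in WT + TAM against WT and -0.86 ± 0.19 in *Mtm1* KO + TAM against WT + TAM, neither called in the main fit. The latter was called in 6 of 19 alternatives. Fat cells also express *Acacb*, and the summed level of 7 fat markers ran from 330.3 to 2232 RPKM in WT, 904.7 to 3351 in WT + TAM, 1443 to 2758 in *Mtm1* KO and 1412 to 2045 in *Mtm1* KO + TAM. Their part in the level of *Acacb* was not tested.

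**Figure D3:**
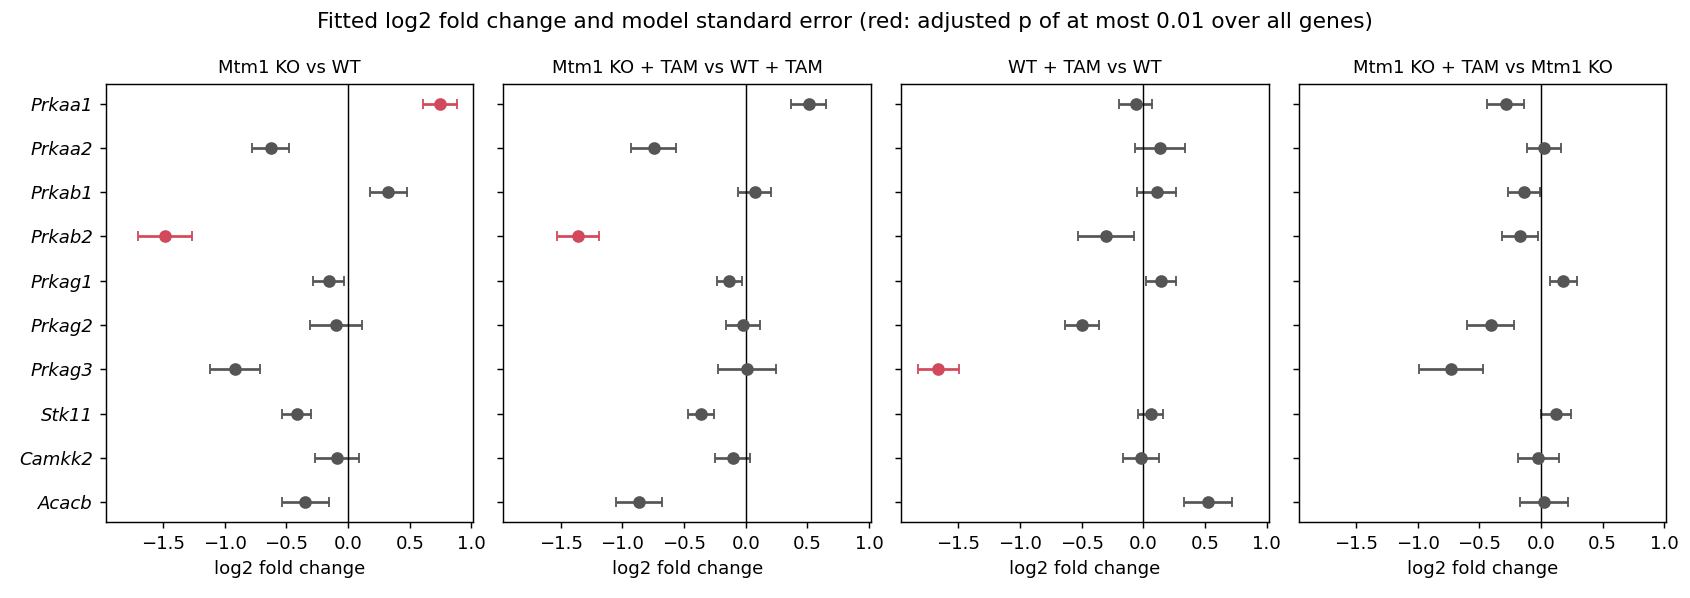
Fitted log2 fold change (horizontal axis) with its model SE for the 10 members in 4 comparisons. Red points passed an adjusted p of at most 0.01 over all genes: *Prkaa1* and *Prkab2* in *Mtm1* KO against WT, *Prkab2* in *Mtm1* KO + TAM against WT + TAM and *Prkag3* in WT + TAM against WT.

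Counted over the list, 2 of 10 members were called in *Mtm1* KO against WT (*Prkaa1* higher, *Prkab2* lower), where 3.6% of 14740 genes were called and 1.69% were called and lower. A single member, 1 of 10, was called in *Mtm1* KO + TAM against WT + TAM (*Prkab2*, lower), against 6.72% of all genes, or 3.3% in that direction. Against untreated WT, *Mtm1* KO + TAM had 3 of 10 called (*Prkaa2*, *Prkab2* and *Prkag3*, all lower), against 7.7% and 4.14%. In WT + TAM against WT 1 of 10 was called (*Prkag3*, lower), against 0.131% and 0.0619%. Since the members were chosen with these values known, nothing is read from these counts.

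No member was called in *Mtm1* KO + TAM against *Mtm1* KO, nor for the difference between the tamoxifen effects in the genotypes, and the background was 0% in both. Across all genes, 1137 of 15062 had an unadjusted p under 0.05 in the former and 665 of 15556 in the latter. DESeq2 and the edgeR exact test each called 72 genes in the former, with 0 members among them. These p-values measure the spread between single mice.

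The groups of 6 members did not overlap in CPM in *Mtm1* KO against WT, where 35.5% of 15556 genes did not overlap. These were *Prkaa1*, higher, and *Prkaa2*, *Prkab2*, *Prkag3* and *Stk11*, lower, with *Prkab1* higher. The corresponding numbers were 4 members against 21.7% of genes in *Mtm1* KO + TAM against WT + TAM, 6 against 30.6% in *Mtm1* KO + TAM against WT, 1 (*Prkag1*) against 7.78% in *Mtm1* KO + TAM against *Mtm1* KO, and 3 (*Prkag2*, *Prkag3* and *Acacb*) against 11.4% in WT + TAM against WT.

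In order of mean RPKM, *Prkab2* and *Prkag3* led in WT and overlapped with each other, followed by *Prkag1*, *Stk11* and *Prkaa2*, which overlapped in turn, then *Acacb*, with *Prkag2*, *Prkaa1*, *Prkab1* and *Camkk2* at 4.38 RPKM or less. In WT + TAM *Prkag3* was in place 6, below *Acacb*, with which it overlapped. In *Mtm1* KO *Prkag3* was first, overlapping with *Prkag1* and ahead of *Prkab2*, and in *Mtm1* KO + TAM *Prkag1* led alone. *Camkk2* was last in all 4 groups.

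Muscle and fiber type markers differed by genotype. The summed level of 5 muscle markers ran from 52320 to 59860 RPKM in WT and 39760 to 43760 in *Mtm1* KO. Of these, *Des* and *Mb* had positive log2 fold changes (0.98 and 0.62), and *Des* was called higher while *Mb* was not called. The summed level of 9 fast fiber markers ran from 88270 to 112400 RPKM in WT and 59140 to 72160 in *Mtm1* KO. There 2 of 9 were called lower, with a median log2 fold change of -0.81. In *Mtm1* KO + TAM the sum ran from 57850 to 75760, with 5 of 9 called lower against WT + TAM. *Prkab2* was called lower in *Mtm1* KO beside the fast fiber markers, and *Prkaa2* and *Prkag3* had negative log2 fold changes that were not called. The 2 markers of 2X and 2A fibers summed to 145.5 to 816.4 RPKM in WT and 1086 to 1803 in *Mtm1* KO, with 0 called. The summed slow fiber markers overlapped, at 16.6 to 317.3 RPKM in WT and 169.0 to 663.6 in *Mtm1* KO. By myosin immunostaining of another muscle, tibialis anterior, the paper saw no change in fiber type shares between WT and untreated *Mtm1* KO. With tamoxifen in *Mtm1* KO, the paper saw there a larger share of fast fibers and smaller shares of slow and intermediate fibers. The part of fiber type in the members' levels was not tested. Leukocyte markers summed to 75.7 to 95.1 RPKM in WT and 135.6 to 186.8 in *Mtm1* KO beside the higher *Prkaa1*, with 0 of 7 tested markers called. Fibroblast markers summed to 742.5 to 789.1 RPKM in WT and 855.5 to 1174 in *Mtm1* KO, with 0 of 5 called. Relative to the TMM median these markers went both ways. *Pdgfra*, *Dcn* and *Lum* had log2 fold changes of 0.52, 0.46 and 0.44, and *Col1a1* and *Col3a1* of -0.28 and -0.42. The part of leukocytes and fibroblasts in the members' levels was not tested. In whole muscle, fewer cells of a type and less RNA per cell cannot be told apart.

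Between WT and WT + TAM, where *Prkag3* differed most, the summed fast fiber markers overlapped. They summed to 88000 to 97410 RPKM in WT + TAM, 0 of 9 were called, and their median log2 fold change was -0.07. The 7 slow fiber markers summed to 16.6 to 317.3 RPKM in WT and 19.4 to 154.7 in WT + TAM, again with 0 called. The part of fiber type in the level of *Prkag3* was not tested here either. The summed level of 5 fibroblast markers did not overlap between these groups, at 742.5 to 789.1 RPKM in WT and 459.8 to 674.0 in WT + TAM, with 0 of 5 called, and their part was not tested.

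The level of *Prkag3* was compared with that of 10884 genes by Pearson's r of log2 CPM over the 14 libraries, without a test, since the points share library and treatment. *Golga7b*, an accessory protein of protein palmitoylation, was most like it (r = 0.91, and 0.95 within the 7 WT and 0.88 within the 7 *Mtm1* KO libraries). Its group means were 13.3 and 5.77 CPM in untreated and treated WT, and 10.9 and 5.601 in untreated and treated *Mtm1* KO. *Cited4*, a transcriptional co-regulator, followed with r = 0.88 and means of 58.6, 13.8, 19.8 and 10.2 CPM in the same order of groups. Others were *Kif3c* (a kinesin), *Hfe* (an iron regulator) and the antisense RNA *Foxo6os*, with r of 0.85 to 0.87. Within the *Mtm1* KO libraries *Foxo6os* had r = 0.59.

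The most similar genes to *Prkab2* were others, namely *Camk2a*, a calcium and calmodulin-dependent kinase (r = 0.99), *Tmcc2* (r = 0.99) and *Alkbh5*, an RNA demethylase (r = 0.98). *Camk2a* averaged 525.5 CPM in WT, 431.8 in WT + TAM and 235.8 in *Mtm1* KO + TAM. *Prkab2* averaged 423.6, 343.4 and 133.3 in these groups, and 149.0 in *Mtm1* KO. Between *Prkab2* and *Prkag3* themselves r was 0.50 over the 14 libraries, 0.60 within the 7 WT and 0.74 within the 7 *Mtm1* KO libraries.

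**Figure D4:**
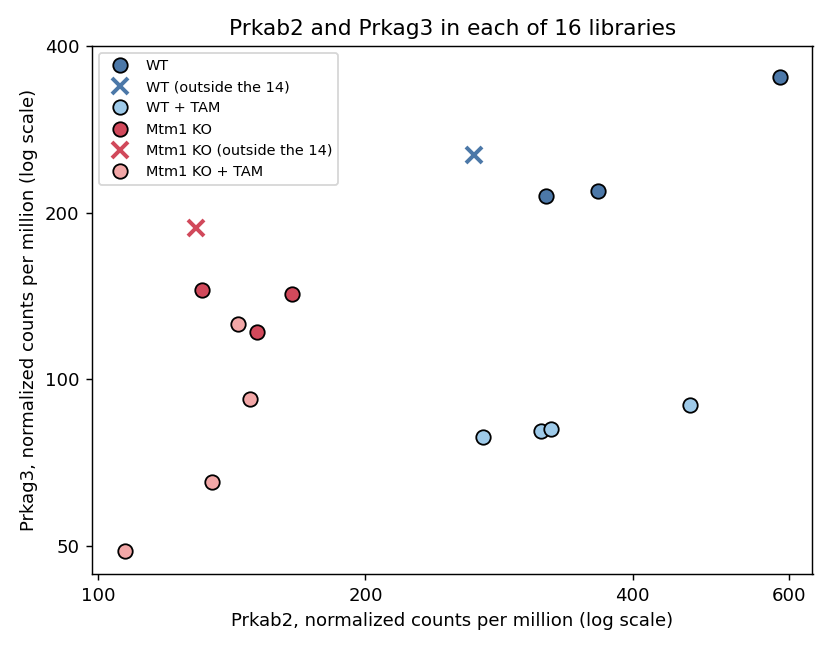
CPM of *Prkab2* (horizontal, log scale) and *Prkag3* (vertical, log scale) in each of 16 libraries, coloured by group, with crosses for the 2 libraries outside the 14. Genotype separates the circles along *Prkab2*, and WT + TAM lies below WT along *Prkag3*.

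The other genes of the pathway were taken as 67 genes in 6 lists, of which 66 were tested in the genotype comparisons. The lists, like the members, were chosen with earlier results of these data known. Their counts of called genes and adjusted p-values are therefore a description, and nothing is read from the counts. In *Mtm1* KO against WT 6 of 66 were called, all lower, against 3.6% of all genes, and the median log2 fold change was -0.15 against 0.02 over all genes. Between the treated groups 12 of 66 were called, 1 higher and 11 lower, against 6.72% of all genes, with a median of -0.27 against -0.01. With tamoxifen, edgeR called 0 of 66 genes in WT and 0 of 65 in *Mtm1* KO, where 15 and 7 had an unadjusted p under 0.05, while DESeq2 called 4 and 1. With library size only, the first comparison had 5 called, 2 higher and 3 lower, and a median of 0.16 against 0.33 over all genes, and the second had 12 called, 4 higher and 8 lower, and a median of 0.006 against 0.27 over all genes. Leaving out 1 library lowered the first count to between 1 and 3, and the second to 7 without WT + TAM replicate 7 or 8 or *Mtm1* KO + TAM replicate 15.

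The adenylate and creatine enzymes, which handle the nucleotides that AMPK senses, held 4 of the 6 genes called in *Mtm1* KO against WT, or 4 of 13 tested, where 3.6% of all genes were called. *Ampd1*, the muscle AMP deaminase, was at 471.3 ± 72.8 RPKM (SD, n = 3) in WT and 221.3 ± 16.7 (n = 3) in *Mtm1* KO, a log2 fold change of -1.41 ± 0.18 (SE, adjusted p = 0.00218). *Nt5c1a*, a cytosolic nucleotidase that makes adenosine from AMP, had 28, 61 and 40 counts in WT and 4, 6 and 1 in *Mtm1* KO (-3.78 ± 0.67, adjusted p = 0.00754). *Nt5c1a* passed the filter on low counts only through its WT libraries, so lower was nearly the only call possible. The adenylate kinase *Ak1* (-0.87 ± 0.15, adjusted p = 0.0082) and the adenylosuccinate synthase *Adssl1* (-0.89 ± 0.12, adjusted p = 0.00329) were lower as well. *Ampd3*, the AMP deaminase of red blood cells, had 4.81 ± 1.48 RPKM in *Mtm1* KO and 1.53 ± 0.32 in WT, with a log2 fold change of 1.35 ± 0.25 that missed the threshold (adjusted p = 0.0106).

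Under tamoxifen the same list had 6 of 13 genes called between genotypes, against 6.72% of all genes. *Ampd1* (-1.08 ± 0.14, adjusted p = 8.33e-04), *Nt5c1a* (-4.02 ± 0.64, adjusted p = 0.00174), *Adssl1* (-0.83 ± 0.12, adjusted p = 0.00118), *Adsl* (-0.52 ± 0.11, adjusted p = 0.00781) and the creatine kinase *Ckm* (-0.87 ± 0.18, adjusted p = 0.00812) were lower. *Ampd3* was higher (1.44 ± 0.23, adjusted p = 0.00219). In *Nt5c1a* the *Mtm1* KO + TAM libraries held 3, 1, 4 and 11 counts, so its fold change rests on few reads. Here it passed the filter on low counts only through its WT + TAM libraries.

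Among targets in glucose uptake and glycogen, 1 of 10 was called in *Mtm1* KO against WT and 4 of 10 in *Mtm1* KO + TAM against WT + TAM, where 3.6% and 6.72% of all genes were called. *Pygm*, the muscle glycogen phosphorylase, was lower in both (-1.17 ± 0.17, adjusted p = 0.00438, and -1.11 ± 0.15, adjusted p = 9.36e-04). *Pfkfb3*, which makes the activator of phosphofructokinase, was lower in the treated comparison (-1.76 ± 0.34, adjusted p = 0.00611).

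*Tbc1d1* and *Tbc1d4*, the Rab regulators through which AMPK and insulin act on GLUT4, were lower in *Mtm1* KO + TAM than in WT + TAM (-0.66 ± 0.13, adjusted p = 0.00691, and -1.17 ± 0.17, adjusted p = 0.00139). Their WT + TAM level was high: *Tbc1d4* averaged 4.46 RPKM in WT, 8.70 in WT + TAM, 4.16 in *Mtm1* KO and 4.68 in *Mtm1* KO + TAM. *Tbc1d1* averaged 3.52, 8.11, 5.15 and 6.25 in the same order, and its log2 fold change of 1.20 ± 0.15 in WT + TAM against WT missed the threshold (adjusted p = 0.0119). Against untreated WT, *Tbc1d1* was higher in *Mtm1* KO + TAM (0.54 ± 0.11, adjusted p = 0.00862).

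The targets in fat metabolism held 0 of 10 called genes in *Mtm1* KO against WT and 1 of 10 under tamoxifen, the lipogenic factor *Srebf1* (-1.05 ± 0.12, adjusted p = 4.12e-04). It averaged 9.55 RPKM in WT, 17.3 in WT + TAM, 8.61 in *Mtm1* KO and 10.1 in *Mtm1* KO + TAM, so that here too WT + TAM stood above the others. Of 14 targets in growth, autophagy and transcription, 1 was called in each genotype comparison, the autophagy kinase *Ulk1* (-0.73 ± 0.13, adjusted p = 0.00956, and -0.69 ± 0.11, adjusted p = 0.00297). None of 13 tested AMPK-related kinases and none of 6 upstream kinases and LKB1 partners was called in these 2 comparisons.

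Of 66 pathway genes, 10 were called in *Mtm1* KO + TAM against untreated WT, 3 higher and 7 lower, where 7.7% of all genes were called and 4.14% were called and lower. The LKB1 partner *Stradb* (-0.86 ± 0.13, adjusted p = 0.00154) and the histone deacetylase *Hdac4* (0.78 ± 0.15, adjusted p = 0.00696) were called there and in no other pairwise comparison. The former averaged 16.7 RPKM in WT, 12.6 in WT + TAM, 13.7 in *Mtm1* KO and 11.1 in *Mtm1* KO + TAM. The count of 10 became 4 without WT replicate 3, 5 without WT replicate 4 or *Mtm1* KO + TAM replicate 15, and 6 without *Mtm1* KO + TAM replicate 13.

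**Figure D5:**
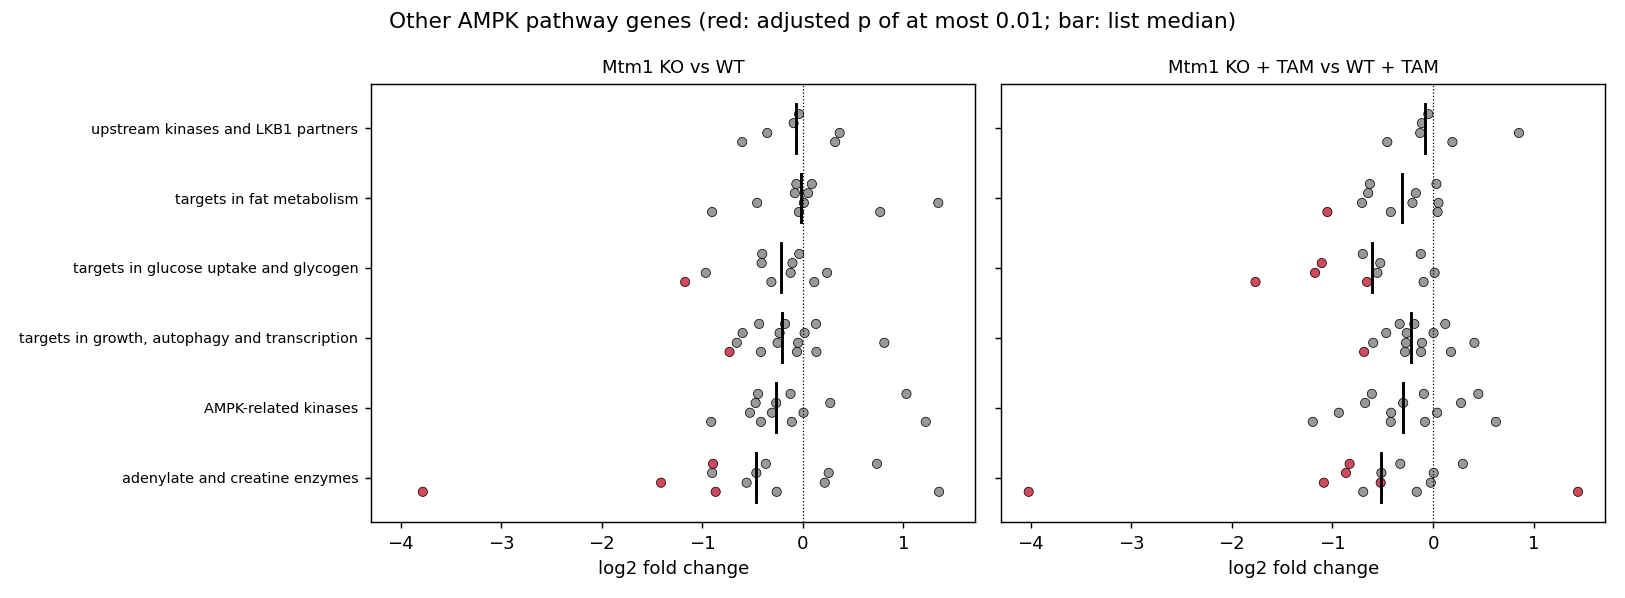
Log2 fold change (horizontal axis) of the other AMPK pathway genes, 1 point per gene, by list, in *Mtm1* KO against WT (left) and *Mtm1* KO + TAM against WT + TAM (right). Red points passed an adjusted p of at most 0.01 and bars are list medians. The adenylate and creatine enzymes hold 4 and 6 of the red points, and *Nt5c1a* lies farthest to the left.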

How the data were processed

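Quadriceps RNA of 16 mice was sequenced by the submitters, with 1 library per mouse. Per the authors, reads were aligned to GRCm38 with STAR (2.5.0c in the submitters' processing notes) and the deposited raw counts per gene were made with HTSeq. The authors' RPKM values scale these counts by total count and gene length. No annotation, counting mode or strand setting was given in the sources used here.

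Counts were fitted with edgeR 4.0.16 in R 4.3.3 (TMM, filterByExpr with minimum count 10, quasi-likelihood test, Benjamini-Hochberg) on the libraries of the 2 groups compared, or of all 4 groups for the difference between tamoxifen effects. On simulated counts with 200 changed genes, 90% were recovered for *Mtm1* KO against WT (14496 genes) and 96% for *Mtm1* KO + TAM against WT + TAM (14402 genes), with 6 and 2 unchanged genes called. Each changed gene was given a log2 fold change of 2, up or down. The fitted changes of all members were smaller than that, so these percentages do not give the recovery of changes of their size. The 2 libraries that the study left out, with no reason given, entered only as an alternative. DESeq2 1.42.0, limma 3.58.1 on log2(RPKM + 0.1) or log2(RPKM + 1), other normalizations and filters, and leaving out each library were also tried. Gene names were taken for all 10 members, for pathway genes called in any pairwise comparison, and for the genes most like *Prkag3* (6) and *Prkab2* (3) by Pearson's r among genes with a mean RPKM of at least 1; 1 of the former is not reported here. The members and lists were chosen with earlier results of these data known. Overlaps with other genes' exons come from the GRCm38 annotation.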

Additional observations from a re-analysis of the deposited data

Results flagged for a closer look

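Dixon's test at the 95% level was applied to the lowest and the highest library in 20 pairs of a member and a group of 4 libraries, and 3 stood apart, where chance gives about 1 in 20. *Prkaa2* was high in WT + TAM replicate 6, at 389.5 CPM. *Prkab1* was low in WT + TAM replicate 8, at 9.17. *Prkag1* was high in *Mtm1* KO + TAM replicate 13, at 69.2.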

How the results depend on the processing

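No paired analysis was possible because the groups share no replicate numbers. The study states that the mice were littermates, but the labels do not say which mice shared a litter. No fold change of a called member turned its direction under any alternative run. Members called in *Mtm1* KO against WT numbered 5 with DESeq2, 4 with the edgeR exact test, 1 with limma on log2(RPKM + 1), 1 with RLE normalization, 5 at an adjusted p of 0.05, 0 with all 16 libraries and 0 to 1 with 1 library left out. For *Mtm1* KO + TAM against WT + TAM they numbered 4 with DESeq2, 3 with the exact test, 2 with either limma pseudocount, 2 with library size only, 3 with no filter, 5 at 0.05, 3 in 1 fit of all 4 groups and 1 to 2 with 1 library left out. Against untreated WT, *Mtm1* KO + TAM gave 5 at 0.05 and 1 to 2 with 1 library left out, and in WT + TAM against WT 0 to 1. With library size only, *Prkag1*, *Prkag2* and *Camkk2* had log2 fold changes of 0.15, 0.21 and 0.23 in *Mtm1* KO against WT, opposite in sign to TMM and below the shifted median of 0.33. Of all genes called there, 1007 were higher and 139 lower with library size only, against 282 and 249 with TMM.

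Pathway genes called in *Mtm1* KO against WT numbered 13 with DESeq2, 12 with the exact test, 2 with limma on log2(RPKM + 1), 12 with no filter, 14 at 0.05, 11 in 1 fit and 3 with all 16 libraries, and 1 to 3 with 1 library left out. For *Mtm1* KO + TAM against WT + TAM they numbered 22, 20 and 27 with DESeq2, the exact test and 0.05, and 7 to 11 with 1 library left out. Against untreated WT, *Mtm1* KO + TAM gave 16 with DESeq2, 21 at 0.05, 2 with all 16 libraries and 4 to 8 with 1 library left out. In *Mtm1* KO + TAM against *Mtm1* KO DESeq2 and the exact test called 1 each. In WT + TAM against WT DESeq2 called 4, the exact test 3, no filter 3, 0.05 3, upper quartile normalization 1 and 1 fit 1, with 0 to 1 with 1 library left out.

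With CPM in place of RPKM, so without gene length, *Prkaa2* made up 92.86% and 93.5% of its class in untreated and treated WT and 83.39% and 86.26% in untreated and treated *Mtm1* KO. In the same order, *Prkab2* made up 97.37%, 96.62%, 91.7% and 91.47%, and *Prkag3* 73.37%, 47.97%, 62.57% and 48.47%. The ratio of *Prkag3* to the other γ genes was then 2.89, 0.9265, 1.676 and 0.9993. With all 16 libraries the *Prkaa2* share in *Mtm1* KO was 73.27%. The causes of these differences were not tested. Counts of a few reads limit *Nt5c1a*.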
